A study of Mus musculus with 8 samples.

Results

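Levels and treatment differences are described here for 7 genes of the mouse Ly6 family (Ly6a, Ly6a2, Ly6c1, Ly6c2, Ly6e, Ly6g and Ly6i), out of 19938 genes measured by a probe set with a single gene symbol. Levels are log2 probe-set values. The members were found by symbol in the platform annotation of the array, and where a gene has several such probe sets the one with the highest mean over the 8 arrays is used. Of the 7 genes, 4 had exactly 1 probe set of their own, so brightness chose nothing among them: Ly6a2 (probe set 10429580), Ly6e (10424676), Ly6g (10424683) and Ly6i (10429560). Ly6c1 and Ly6c2 share both of their probe sets, 10429568 and 10429573, which cannot tell these paralogs apart. Ly6a was not analysed here, since no probe set was listed under its symbol. The family was chosen with results of these arrays already known, so its values describe these cultures and are not independent support for any change.

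Ly6 genes encode small cell surface proteins that share a compact, cysteine-rich fold and are held in the outer membrane leaflet by a glycosylphosphatidylinositol (GPI) anchor. In mouse blood they serve as lineage marks: Ly6a is the stem cell antigen Sca-1, Ly6c is high on inflammatory monocytes, and Ly6g, a target of Gr-1 antibodies, marks neutrophils. Ly6e, also named Sca-2 or TSA-1, is found on immature thymocytes and many other cells, and it is an interferon-inducible gene. Several members lie side by side on chromosome 15, and their sequences are close enough for an array probe to pick up more than 1 of them.

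The series compared c-Kit-positive bone marrow cells of Runx1/Cbfb double-floxed mice, transduced with the leukaemia fusion gene MLL-AF9 and with CreERT2 plus puromycin resistance. CreERT2 is a Cre form that acts once 4-hydroxytamoxifen (4OHT) is added. In the Runx1Cbfb-KO group, 4OHT at 1 µM was given for 24 h, and in the Control group, ethanol for 24 h, both in cytokine-enriched methylcellulose. All cultures carry MLL-AF9, CreERT2 and the floxed alleles, so an effect of 4OHT or active Cre cannot be told apart from gene loss. Each group has 4 arrays, from 2 clones with 2 biological replicates each, and the Runx1Cbfb-KO and Control cultures of the same clone and replicate number form a set. The labels used here state neither strain nor age of the mice. The series rests on those 2 clones.

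Array quality and identity were checked first. The median of an array was 6.26 to 6.39 (log2), and correlations across genes were 0.994 to 0.999 within a clone and 0.981 to 0.991 across clones. Against its label, Runx1 gave more signal in the Runx1Cbfb-KO arrays, by 0.52 ± 0.04 on the log2 scale (SE, n = 4 sets; limma adjusted p = 1.64e-05, or 1 with neither clone nor pairing in the fit), and Cbfb differed by -0.18 ± 0.05 without passing the test (limma adjusted p = 0.128). Where these probe sets lie relative to the floxed exons was not analysed here, so the deletion was not checked by them. The arrays are called KO-labelled below, and each direction follows that label. Of the progenitor markers, Mpo lay between 12.93 and 13.18, Elane between 13.27 and 13.36, and Kit between 9.50 and 10.15. Cd34 set the clones apart, at 5.58 to 5.92 in clone 1 and 11.11 to 11.57 in clone 2. The T cell receptor complex genes Cd3e, at 5.80 to 6.19, and Cd3g, at 4.46 to 4.86, were dim over the 8 arrays. Thy1, also listed as a T cell marker, was above the array medians, at 6.87 to 8.34. In RNA from whole cultures, fewer cells of a type and less RNA per cell cannot be told apart.

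Promoter sequences are shown first because the member that differed most between the groups, Ly6a2, has a start region nearly the same as that of a paralog whose shared probe sets hardly moved. RefSeq start windows on GRCm38.p6, which run from 250 bases before the start of the transcript to 50 bases after it, matched 4 of the 7 members, namely Ly6a2, Ly6c1, Ly6c2 and Ly6g. The first listed window of each is printed 5′ to 3′ in the direction of the gene. Capitals mark 2 short motifs: the RUNX core, TGTGGT or TGCGGT, on either strand, which reads ACCACA where TGTGGT lies on the opposite strand, and the PU.1 core, GAGGAAGT, on either strand. The motifs were chosen after the sequences were seen.
Ly6a2, chr15:75135079-75135378, minus strand: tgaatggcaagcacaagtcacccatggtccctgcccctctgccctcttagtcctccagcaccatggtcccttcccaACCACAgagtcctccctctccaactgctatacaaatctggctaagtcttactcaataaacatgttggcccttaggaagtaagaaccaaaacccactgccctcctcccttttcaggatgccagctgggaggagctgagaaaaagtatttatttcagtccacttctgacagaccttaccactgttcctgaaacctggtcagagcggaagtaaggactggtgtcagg
Ly6c2, chr15:75111922-75112221, minus strand: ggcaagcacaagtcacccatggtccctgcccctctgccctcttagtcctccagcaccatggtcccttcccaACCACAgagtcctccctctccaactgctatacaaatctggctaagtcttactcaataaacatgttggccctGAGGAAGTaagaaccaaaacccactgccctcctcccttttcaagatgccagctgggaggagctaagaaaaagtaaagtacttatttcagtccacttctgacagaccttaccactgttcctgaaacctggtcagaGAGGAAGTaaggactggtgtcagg
Ly6c1, chr15:75048788-75049087, minus strand: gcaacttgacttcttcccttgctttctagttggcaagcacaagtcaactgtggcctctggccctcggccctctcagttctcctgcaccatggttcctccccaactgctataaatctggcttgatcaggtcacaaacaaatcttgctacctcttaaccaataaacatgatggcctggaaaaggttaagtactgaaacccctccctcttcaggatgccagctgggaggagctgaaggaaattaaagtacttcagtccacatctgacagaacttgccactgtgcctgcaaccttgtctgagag
Ly6g, chr15:75155011-75155310, plus strand: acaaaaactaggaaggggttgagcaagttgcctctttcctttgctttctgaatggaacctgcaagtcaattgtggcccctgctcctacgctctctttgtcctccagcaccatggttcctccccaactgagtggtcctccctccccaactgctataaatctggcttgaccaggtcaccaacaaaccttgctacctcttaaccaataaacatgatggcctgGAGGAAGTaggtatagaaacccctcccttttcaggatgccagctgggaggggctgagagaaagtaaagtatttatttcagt

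The Ly6a2 and Ly6c2 windows were identical at 290 of 300 aligned positions (96.7%). Ly6a2 shared 72.8% with Ly6c1 and 69.7% with Ly6g. The RUNX core occurred once in the Ly6a2 window, 174 to 169 bases before the start, and once in the Ly6c2 window, 179 to 174 bases before it, both on the strand opposite to the gene. It was not found in the printed windows of Ly6c1 and Ly6g. Of all 32851 windows of this length in the table, 22.4% hold a RUNX core, so a match is a common event. The PU.1 core, held by 3.2% of all windows, was present in the windows of Ly6c2 (at 2 places) and Ly6g (at 1 place). These exact letters were not found in the printed windows of Ly6a2 and Ly6c1. At the 2 places that match those of Ly6c2, the Ly6a2 window reads taggaagt and gcggaagt, each differing from the core by 1 letter. The table gives Ly6c1, Ly6c2 and Ly6g a second window, not printed here, and all 3 hold the PU.1 core, at 1 place in Ly6c1 and at 2 places each in Ly6c2 and Ly6g. The RUNX core was found in the second window of Ly6c2 but not in those of Ly6c1 and Ly6g. A RUNX core variant ending in C, TGTGGC, held by 18.9% of all windows, occurred in the windows of Ly6c1 and Ly6g. Neither the interferon-stimulated response element (3.4% of all windows) nor the gamma-activated site TTCNNNGAA (8.3%) matched in the 4 printed windows. A match is a description of the letters and does not show that a factor binds there.

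Ly6a2, which lies between Ly6c2 and Ly6g on chromosome 15, was the 1 member of the 4 tested that passed the test over all genes, and it was lower in the KO-labelled arrays. In clone 1 its log2 level was 12.29 and 12.05 in KO-labelled arrays (replicates 1 and 2), against 12.45 and 12.33 in Control arrays. In clone 2 it was 10.51 and 9.72 in KO-labelled arrays, against 11.34 and 10.90 in Control arrays. The groups did not overlap within either clone, but over all 8 arrays they did: both KO-labelled arrays of clone 1 stood above both Control arrays of clone 2. The set differences, KO-labelled minus Control, were -0.16 and -0.27 in clone 1 and -0.83 and -1.17 in clone 2, lower in 4 of 4 sets.

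Over the 4 sets the Ly6a2 mean was 11.14 ± 1.23 in KO-labelled arrays and 11.75 ± 0.76 in Control arrays (SD, n = 4 each), a log2 difference of -0.61 ± 0.12 (SE, n = 4 sets), or 1.53-fold lower (limma adjusted p = 0.0298). Called lower were 1 of the 4 tested members and 0.471% of all 19938 genes (0.953% in either direction). This SE is limma's moderated one, partly set by the spread of other genes. The set differences themselves had an SD of 0.48, which gives an SE of 0.24. The call ended in 9 of 15 alternative fits, among them with neither clone nor pairing in the fit (adjusted p = 1), without the variance trend (0.380), with robust moderation (0.844) and with all probe sets tested (0.618), and without the set of clone 2, replicate 1 (0.0551). All 15 kept the negative sign, with differences between -0.76 and -0.42. Of all genes, none passed in limma with neither clone nor pairing in the fit (317 had an unadjusted p under 0.05), 23 passed with clone alone adjusted for, and 78 with clone plus replicate number.

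**Figure D1:**
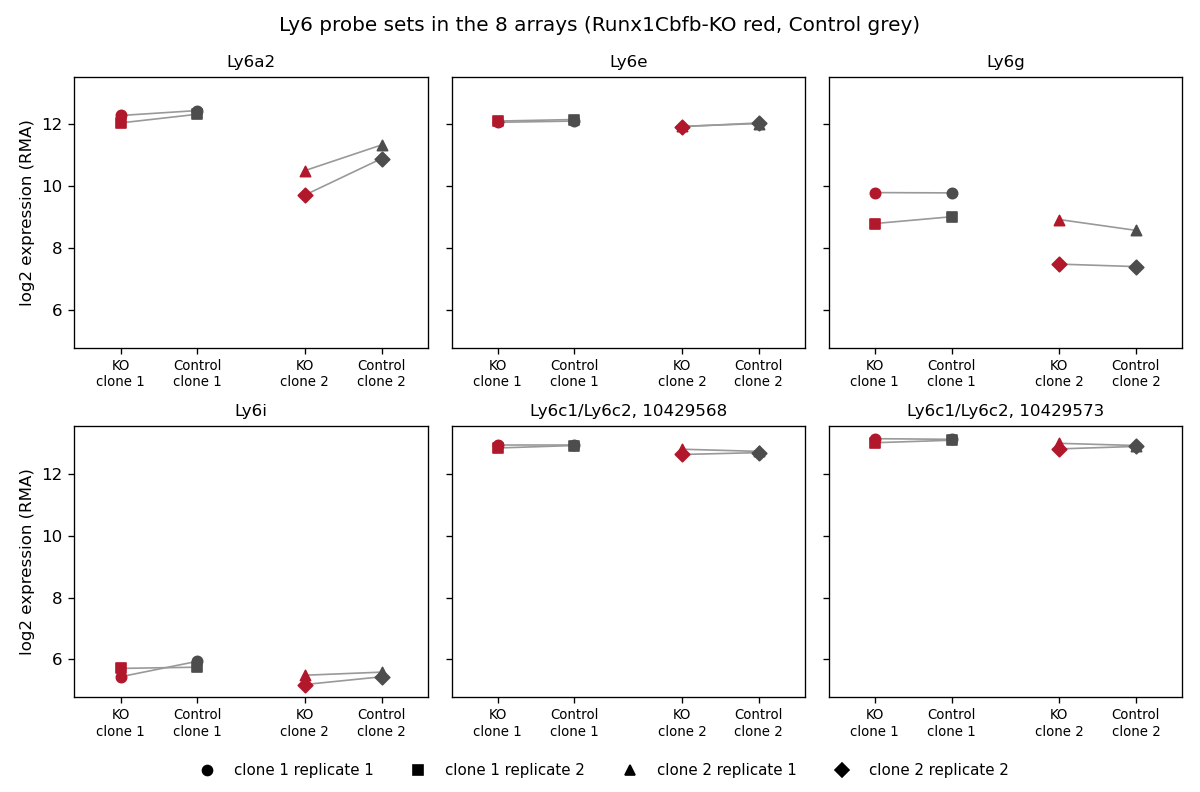
Log2 expression of the Ly6 probe sets (vertical axis, same scale in each panel) in the 8 arrays, with Runx1Cbfb-KO arrays in red to the left of Control arrays in grey for each clone, and a line joining the arrays of a set. Ly6a2 falls apart by clone and is lowest in clone 2 of the KO-labelled group (10.51 and 9.72), and Ly6g is apart by clone and replicate. Ly6i spans 0.74 on the log2 scale, while Ly6e and both Ly6c1/Ly6c2 probe sets are nearly flat.

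The treatment difference of Ly6a2 was not the same in the clones. In clone 1 it was -0.22 ± 0.06 (SE, n = 2 sets), or 1.16-fold lower, and did not pass (limma adjusted p = 0.465, with 0.181% of all genes passing). In clone 2 it was -1.001 ± 0.06 (SE, n = 2 sets), or 2.00-fold lower (limma adjusted p = 5.40e-07), where 0.396% of all genes were called lower and 0.682% in either direction. Each SE in this paragraph is limma's moderated one, with a spread shared by both clones and partly set by other genes. The clone 2 sets themselves lay further apart than this SE implies, at -0.83 and -1.17. The test of the difference between these effects, clone 1 minus clone 2, gave 0.78 ± 0.09 (SE; limma adjusted p = 0.00276). Only 2 of 19938 genes passed this test (0.01%), and the other was F13a1, the catalytic subunit gene of coagulation factor XIII, which rose by 0.59 in clone 1 and 1.66 in clone 2 and is named here after its values were seen. Both the difference between clones (adjusted p = 1 in both) and the clone 2 effect (0.359 and 0.0883) lost their calls without the set block and without the variance trend.

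The clones also differed in Ly6a2 level in the ethanol-treated Control cultures. Among Control arrays Ly6a2 was 12.39 ± 0.09 in clone 1 and 11.12 ± 0.31 in clone 2 (SD, n = 2 each), a log2 difference of 1.27 ± 0.21 (SE; limma adjusted p = 0.00645), or 2.41-fold. Between the clones 3.97% of all genes passed and 2.37% were called higher in clone 1, and Ly6a2 was the 1 member of the 4 tested that did. The adjusted p was 0.0702 without the Control array of clone 1, replicate 1, and 0.0647 without that of clone 2, replicate 2. Among KO-labelled arrays the gap was wider, with means of 12.17 ± 0.17 in clone 1 and 10.12 ± 0.55 in clone 2 (SD, n = 2 each), and a log2 difference of 2.06 ± 0.21 (SE; limma adjusted p = 0.000252). In that comparison 5.25% of all genes passed. The clone with the lower Control level of Ly6a2 was thus the clone with the larger drop.

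**Figure D2:**
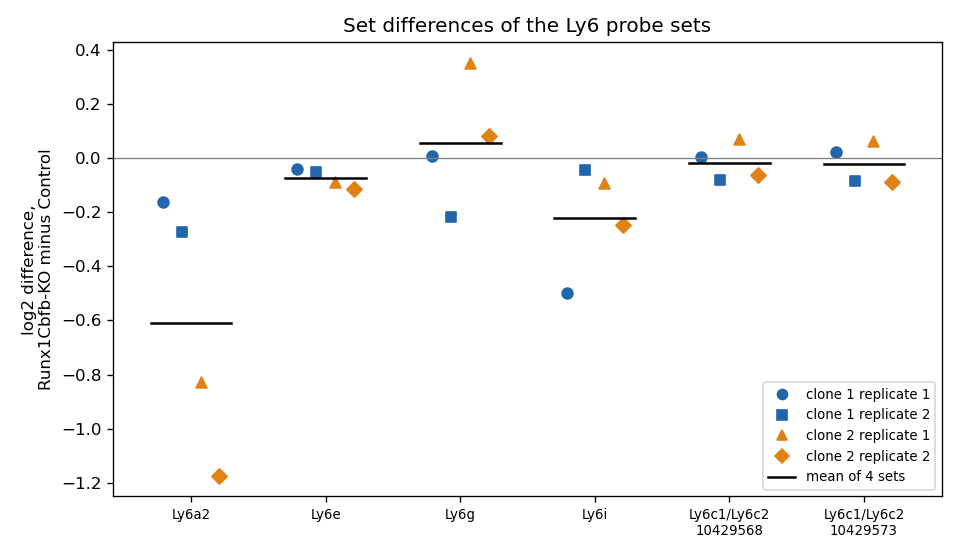
Log2 difference, Runx1Cbfb-KO minus Control (vertical axis), of each Ly6 probe set in the 4 sets, with clone 1 in blue, clone 2 in orange and the mean of the 4 sets as a black bar. Ly6a2 has its clone 2 sets at -0.83 and -1.17, far below its clone 1 sets, while both Ly6c1/Ly6c2 probe sets lie within 0.09 of 0.

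The probe sets shared by Ly6c1 and Ly6c2, the genes of the monocyte antigen Ly6C, were among the brightest on the arrays, where the highest value of any probe set was 13.77. Probe set 10429568 was at 12.93 and 12.83 in KO-labelled arrays of clone 1, against 12.93 and 12.91 in Control arrays. In clone 2 it was at 12.79 and 12.62 in KO-labelled arrays, against 12.72 and 12.68 in Control arrays. KO-labelled arrays were higher in 2 sets and lower in 2, and the values of the groups overlapped.

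Probe set 10429573 was at 13.13, 13.00, 12.98 and 12.80 in the KO-labelled arrays, against 13.11, 13.08, 12.91 and 12.88 in the Control arrays of the same sets. It followed the other shared probe set in which sets were higher or lower. The log2 difference of 10429568 over 4 sets was -0.02 ± 0.03 (SE), and that of 10429573 was -0.02 ± 0.03 (SE), in a limma fit over all 35556 probe sets (adjusted p = 1 for both). In that fit no probe set passed in either direction (0%), while 1834 had an unadjusted p under 0.05. Set differences ran from -0.08 to 0.07 in 10429568 and from -0.09 to 0.06 in 10429573, and both probe sets were above 0 in the sets of replicate 1 and below 0 in those of replicate 2. Among Control arrays, clone 1 was above clone 2 by 0.22 ± 0.06 and 0.20 ± 0.07 (SE), and neither passed (adjusted p = 0.258 and 0.370, with 1.34% of probe sets passing). The Ly6a2 difference was therefore not seen in the probe sets that Ly6c2, the paralog with a nearly identical start region, shares with Ly6c1. Such shared probe sets do not give the change of Ly6c2 alone. How far probes of one Ly6 gene pick up transcripts of another was not tested.

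Ly6g, the neutrophil antigen gene, varied strongly between cultures but did not follow the treatment. In clone 1 its log2 level was 9.80 and 8.80 in KO-labelled arrays (replicates 1 and 2), against 9.79 and 9.02 in Control arrays. Clone 2 had 8.93 and 7.49 in KO-labelled arrays, against 8.58 and 7.41 in Control arrays. Both arrays of a set stood close together, and the sets of replicate 1 stood above those of replicate 2 in both clones.

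The mean of Ly6g was 8.76 ± 0.95 in KO-labelled arrays and 8.70 ± 1.00 in Control arrays (SD, n = 4 each), a log2 difference of 0.06 ± 0.08 (SE, n = 4 sets; limma adjusted p = 1). The set differences were 0.01, -0.22, 0.35 and 0.08, higher in 3 of 4 sets. Its span over the 8 arrays was 2.39 on the log2 scale, second among the members to the 2.73 of Ly6a2. Clone effects of -0.10 ± 0.10 in clone 1 and 0.22 ± 0.10 in clone 2 (SE) did not pass (limma adjusted p = 1 and 0.937), nor did their difference of -0.32 ± 0.14 (adjusted p = 1). Among Control arrays Ly6g was 9.40 ± 0.54 in clone 1 and 7.99 ± 0.83 in clone 2 (SD, n = 2 each). That log2 difference of 1.41 ± 0.50 (SE) did not pass (limma adjusted p = 0.220), but passed when replicate number was a covariate (5.01e-05). With 1 Control array left out, it ran from 0.83 (without clone 2, replicate 2) to 2.00 (without clone 2, replicate 1).

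Neutrophil markers were set beside Ly6g. The mean log2 level of 8 such genes was 6.89 and 6.78 in KO-labelled arrays of clone 1, against 6.98 and 6.93 in Control arrays. For clone 2 the mean was 8.0 and 6.58 in KO-labelled arrays, against 7.91 and 6.76 in Control arrays. Both arrays of clone 2, replicate 1, stood above all others.

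In the clone 2 sets Ly6g and these markers were thus both higher in replicate 1, while clone 1, replicate 1, had the highest Ly6g of the 4 sets but not the highest markers. Of the 8 markers, 6 (S100a8, S100a9, Ltf, Camp, Ngp and Mmp8) were higher in replicate 1 of clone 2 than in replicate 2 in both groups. Cxcr2 was higher in replicate 1 in the KO-labelled arrays but not in the Control arrays, and Retnlg in the Control arrays but not in the KO-labelled arrays. Of the 8 markers 1 fell in the KO-labelled arrays, the granule protein gene Ngp, by 0.45 ± 0.09 (limma's moderated SE, n = 4 sets, limma adjusted p = 0.0305). Its set differences were -0.36 and -0.55 in clone 1 and -0.04 and -0.87 in clone 2. Like that of every gene, its call was lost with neither clone nor pairing in the fit. The other 7 markers did not pass, where 0.471% of all genes were called lower. The part of maturing neutrophils in the Ly6g levels was not tested.

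**Figure D3:**
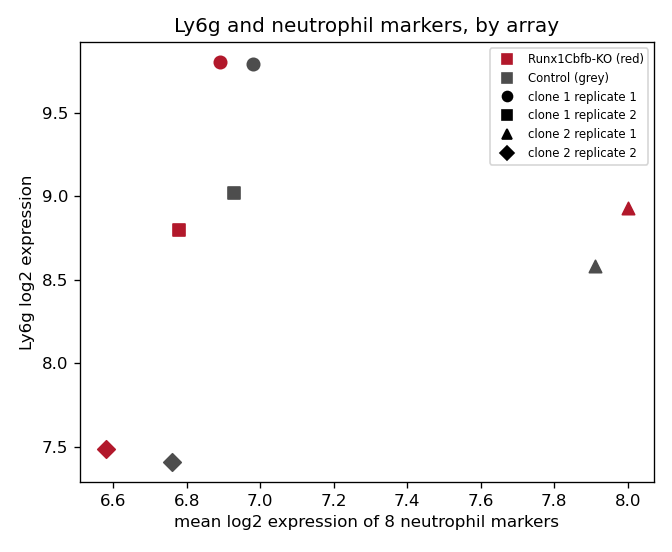
Ly6g log2 expression (vertical axis) against the mean log2 expression of 8 neutrophil markers (horizontal axis), 1 point for each array, with Runx1Cbfb-KO in red and Control in grey and a symbol for each set. The arrays of a set lie close together, and the clone 1 arrays have Ly6g levels of 8.80 to 9.80 at marker means of 6.78 to 6.98.

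Ly6e, the interferon-inducible member, was bright and nearly constant, with a span of 0.23 over the 8 arrays. In clone 1 its log2 level was 12.07 and 12.11 in KO-labelled arrays, against 12.11 and 12.16 in Control arrays. Clone 2 had 11.94 and 11.93 in KO-labelled arrays, against 12.03 and 12.05 in Control arrays. It was slightly lower in the KO-labelled array of every set, and the groups overlapped over the 2 clones.

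The Ly6e set differences were -0.04, -0.05, -0.09 and -0.12, with a mean of -0.07 ± 0.02 (SE, n = 4 sets), or 1.05-fold lower, which did not pass (limma adjusted p = 0.365). Its clone effects were -0.05 ± 0.04 and -0.10 ± 0.04 (SE), and their difference did not pass (0.06 ± 0.05, limma adjusted p = 1). Clone 1 stood 0.10 ± 0.05 above clone 2 among Control arrays (adjusted p = 0.496).

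Ly6i, a less studied member, was dim. Its log2 level was 5.44 and 5.71 in KO-labelled arrays of clone 1, against 5.94 and 5.75 in Control arrays. Clone 2 had 5.49 and 5.19 in KO-labelled arrays, against 5.59 and 5.44 in Control arrays. These levels lie below the array medians, and no detection call was given by which they could be told from background.

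The Ly6i set differences of -0.50, -0.05, -0.09 and -0.25 were below 0 in 4 of 4 sets, and their mean of -0.22 ± 0.09 (SE, n = 4 sets) did not pass (limma adjusted p = 0.606). Without the set of clone 1, replicate 1, the mean was -0.13. Clone effects were -0.27 ± 0.14 and -0.17 ± 0.14 (SE), and among Control arrays clone 1 stood 0.33 ± 0.14 above clone 2 (limma adjusted p = 0.357). With Ly6a2, Ly6e and Ly6i, 3 of the 4 tested members were lower in every set, as were 6.51% of all genes, while only Ly6a2 passed the test.

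The other genes of the Ly6 and urokinase receptor family were examined for the same pattern. Of 35 listed genes 32 were measured, and none passed in either direction, while 4 had an unadjusted p under 0.05 in limma. The same held for 1289 of all 19938 genes at the unadjusted threshold. Their median log2 difference was -0.02, against 0.00 over all genes tested, and they ranged from -0.25 to 0.19. Plaur, the urokinase receptor gene, had the smallest p, with a difference of -0.23 ± 0.06 (SE, n = 4 sets; limma adjusted p = 0.145) and set differences of -0.03, -0.26, -0.30 and -0.34. Its levels were 8.66 to 9.03 in KO-labelled arrays and 8.96 to 9.29 in Control arrays, so the groups overlapped.

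Along chromosome 15 the annotation lists 22 genes of this family, of which 17 were measured. Their order here leaves out other genes between them, such as the non-coding RNA gene Gm28068 between Ly6e and Ly6i. Ly6a2 lies between Ly6c2 and Ly6g in that order, followed by Ly6g2 and Ly6f. Ly6g2 had a log2 difference of -0.16 ± 0.07 and Ly6f of -0.01 ± 0.08 (SE, n = 4 sets), and neither passed (limma adjusted p = 0.708 and 1). Ly6g2, at 4.86 to 5.15, and Ly6f, at 4.89 to 5.32, were dim in all arrays. Before Ly6e in the order, Ly6m, Gml, Ly6k and Ly6d lay between 4.72 and 6.74, with differences between -0.12 and 0.00. Within clone 2 alone, the other 16 measured family genes of this order differed by -0.23 (Gml) to 0.22 (Ly6g). None of the 16 passed in limma there, and 2 had an unadjusted p under 0.05, with an adjusted p of 0.591 at the lowest (Ly6e). Of all 19938 genes, 1031 had an unadjusted p under 0.05 in limma within clone 2.

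**Figure D4:**
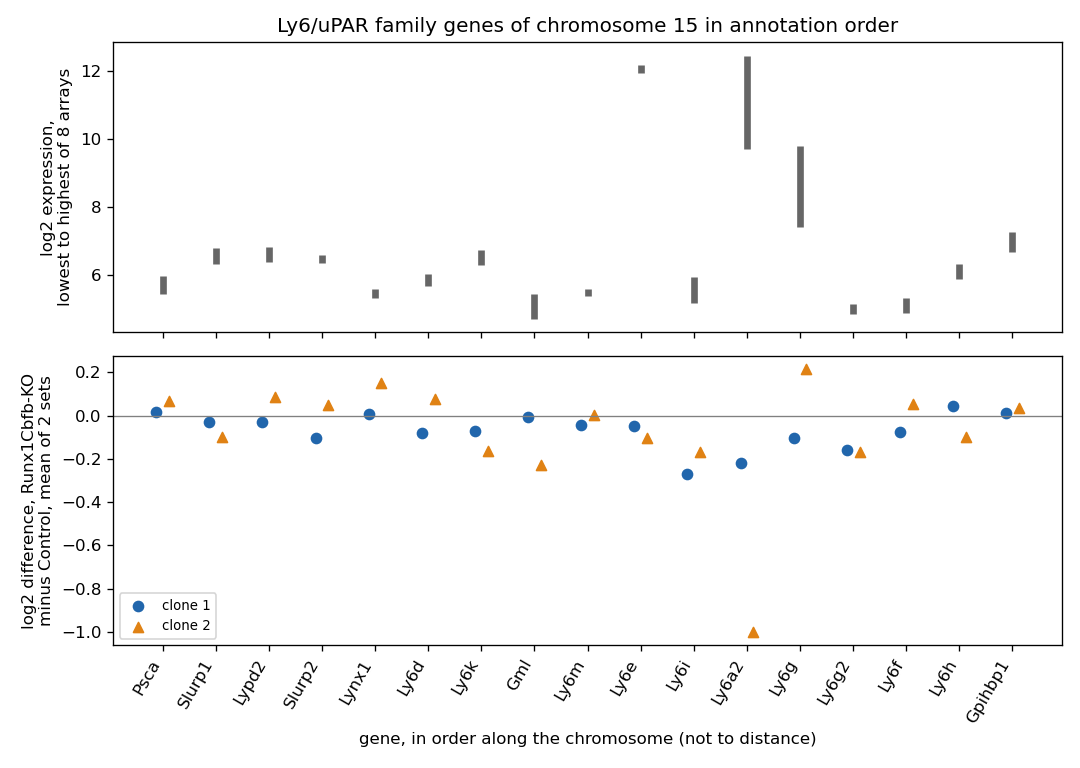
The 17 measured Ly6 and urokinase receptor family genes of chromosome 15 in their annotated order (horizontal axis, not to distance), with the range of log2 expression over the 8 arrays (upper panel) and the log2 difference, Runx1Cbfb-KO minus Control, in clone 1 (blue) and clone 2 (orange, lower panel). Ly6a2 in clone 2, at -1.001, stands below every other value shown, and levels of different genes come from different probes and are not compared.

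Lists of genes tied to Ly6 biology were then examined. Of 33 measured interferon response genes none passed, and 6 had an unadjusted p under 0.05 in limma, with a median log2 difference of 0.05. Over all 19938 genes, 1289 had an unadjusted p under 0.05 in that limma fit, and 0.953% passed. Cmpk2, a nucleotide kinase gene of the antiviral response, had the smallest p, with a difference of -0.29 ± 0.07 (SE, n = 4 sets; limma adjusted p = 0.117). Of 29 GPI anchor synthesis and attachment genes none passed, and 1 had an unadjusted p under 0.05, the transamidase subunit gene Gpaa1 (-0.10 ± 0.04, adjusted p = 0.489). The median over this list was -0.02. Of 13 other GPI-anchored leukocyte protein genes none passed, and 3 had an unadjusted p under 0.05. Cd24a had the smallest p among them, with a difference of 0.14 ± 0.05 (SE; limma adjusted p = 0.370).

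Cell type markers were examined in the same way. Of 8 progenitor genes 2 fell, Kit, the stem cell factor receptor gene (-0.36 ± 0.05, limma adjusted p = 0.00404), and Itgam, which encodes CD11b (-0.29 ± 0.06, adjusted p = 0.0316), where 0.471% of all genes were called lower. Of 6 measured monocyte genes none passed in limma and 0 had an unadjusted p under 0.05, with Csf1r at 0.18 ± 0.09. The mean log2 level of these monocyte genes was 7.13 to 7.62 in KO-labelled arrays and 7.05 to 7.59 in Control arrays. Their part in the Ly6c1 and Ly6c2 values was not tested. None passed among 5 stem cell, 7 T and NK cell, 4 B cell, 4 erythroid, 6 mast cell and basophil and 6 dendritic cell genes. The counts at an unadjusted p under 0.05 in these lists were 0, 0, 0, 1, 1 and 1, against 1289 of all 19938 genes in limma. The smallest p in each belonged to Mecom (0.09 ± 0.07), Cd2 (-0.16 ± 0.08), Cd79a (0.08 ± 0.06), Tfrc (-0.16 ± 0.04), Mcpt8 (-0.24 ± 0.07) and Flt3 (0.29 ± 0.09), all as log2 differences with SE.

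The genes whose log2 levels ran most like those of the variable members over the 8 arrays were picked by Pearson correlation, as a description. Arrays of a clone share their source, so such correlations mostly follow the clones and sets. For Ly6a2 they were Ptar1 (r = 0.992), Scfd2 (r = 0.990) and Pycard (r = 0.988), the last encoding the inflammasome adaptor ASC. Their treatment differences were small, at -0.15, -0.14 and -0.13, and none passed. For Ly6g they were Lyrm7 (r = 0.992), Rasa3 (r = 0.987) and Haus7 (r = 0.978), with treatment differences of 0.03, 0.03 and 0.00. None of the 8 neutrophil markers was among these 3.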

How the data were processed

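Gene expression was measured on 8 Affymetrix arrays, 1 for each culture, with labelled cDNA made by a whole-transcript kit, per the labels' protocols. The deposited values are probe-set levels on the log2 scale, made with RMA (background correction, quantile normalization and median polish) per the submitters' processing notes, with a log base read from the values and a chip definition not given in the sources used here. The table holds 35556 probe sets, and the platform annotation gives 21789 of them 1 gene symbol, 1621 several, while 12146 are unnamed here. For genes with several probe sets the brightest was used, which left 19938 genes. The number of arrays limits precision, and no detection calls were given.

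Differences were fitted in limma (version 3.58.1, with R 4.3.3) to the log2 values (trended empirical Bayes, two-sided tests, Benjamini-Hochberg adjustment over all genes, threshold 0.05), with the set as a block. The series' design text describes 4 sets, and the match by replicate number was read from the titles. Arrays of a set deviated together from their group means (r between 0.72 and 0.82 across genes), and with clone means removed r was 0.44 in clone 1 and 0.25 in clone 2. An effect per clone was fitted with the same block, and the clones were compared in a fit of 4 cells, clone by treatment. P-values of the treatment effects with this block measure the spread between these sets, moderated with the spread of other genes. Those of the clone comparisons rest on the spread between replicate cultures of the same clone and treatment. They do not measure how clones vary. Shared Ly6c1 and Ly6c2 probe sets were tested in a fit over all probe sets.

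All 7 members were named, with Runx1 and Cbfb. Of each gene list up to 3 genes past the threshold with the smallest p were named, or the 1 with the smallest p where none passed. For members spanning at least 1 log2 unit, the 3 most correlated genes were named, passing over model and clone names. Members, lists and tests were chosen with earlier results of these data known. Promoter windows come from RefSeq on GRCm38.p6. Alternatives covered the pairing, the variance model, weights, normalization, probe-set choice, a filter on dim genes and leaving out sets.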

Additional observations from a re-analysis of the deposited data

Results flagged for a closer look

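The treatment effect on Ly6a2 differed between the clones. The effect was -0.22 ± 0.06 in clone 1 and -1.001 ± 0.06 in clone 2 (SE, n = 2 sets each), and the tested difference, clone 1 minus clone 2, was 0.78 ± 0.09 (SE; limma adjusted p = 0.00276). These SEs are limma's moderated ones, with a spread shared by both clones, while the clone 2 sets themselves were at -0.83 and -1.17. The adjusted p was 1 without the set block and 1 without the variance trend, and all 8 alternatives kept the sign, with differences between 0.61 and 0.96.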

How the results depend on the processing

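The count of genes past the threshold in the 4-set comparison, 190, was 0 with no replicate block (317 at an unadjusted p under 0.05), 23 with clone alone adjusted for, 78 adjusting for clone plus replicate number, 13 without the variance trend, 388 with array weights, 88 with arrays centred on their medians and 0 with all probe sets tested (1834 unadjusted). It ran from 98 to 418 when 1 set was left out. Within clone 1 the count of 36 was 1 with no replicate block, 0 without the variance trend (601 unadjusted) and 131 with array weights, and ran from 25 to 256 when 1 set was left out. Within clone 2 the count of 136 was 4 with no replicate block and 3 without the variance trend, and ran from 161 to 665. The count of 2 for the difference between clones was 0 with no replicate block (178 unadjusted), 0 without the variance trend (304 unadjusted) and 4 with array weights, and ran from 5 to 224. Fits of single clones without 1 set leave a clone with a lone set, which is assumed to vary like the other sets, and 1 residual degree of freedom, so their counts rest mostly on spread borrowed from other genes. The count of 792 between Control arrays of the clones was 1330 with replicate number as a covariate (a replicate block) and ran from 352 to 461 when 1 Control array was left out. The cause was not tested.

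Ly6a2 kept its sign in all 15 alternatives of the 4-set comparison and its call in 6. It lost the call with no replicate block (adjusted p = 1), adjusting for clone alone (0.637), adjusting for clone plus replicate number (0.140), without the variance trend (0.380), with robust moderation (0.844), with quantile normalization (0.0590), with all probe sets tested (0.618), without dim genes (0.0538) and without clone 2, replicate 1 (0.0551). With a separate effect for the sets of each replicate number, an alternative chosen after seeing the data, it was -0.50 in replicate number 1 (0.182) and -0.72 in replicate number 2 (0.0531). In clone 1 alone it passed with array weights (0.0406) and without either clone 2 set (adjusted p up to 1.38e-05). Ly6e and Ly6i kept their sign and stayed uncalled in all alternatives of that comparison in which they were tested; Ly6i was among the dim genes left out. Ly6g changed sign without clone 2, replicate 1 (-0.042 to 0.147 when 1 set was left out) and in the sets of replicate number 2 (-0.068). Within clone 1 it changed sign without replicate 2 (-0.217 to 0.00932 over the sets left out), and Ly6i changed sign in the difference between clones without clone 1, replicate 1 (-0.328 to 0.124). The cause was not tested.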

Other observations

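Of the other family genes, Lypd6 and Cd59a differed between the clones, and both are named here after their values were seen. Among Control arrays Lypd6, a Ly6 domain gene known as a regulator of Wnt signalling and acetylcholine receptors, was higher in clone 1 by 3.06 on the log2 scale (limma adjusted p = 3.15e-07). Cd59a, which encodes an inhibitor of the complement membrane attack complex, differed by -1.26, lower in clone 1 (adjusted p = 0.0108). These were 2 of 32 measured genes of the list, against 3.97% of all genes. The treatment differences of -0.16 for Lypd6 and 0.19 for Cd59a did not pass (adjusted p = 1 and 0.757). Of the interferon response genes 5 of 33 differed between the clones' Control arrays, with the guanylate-binding protein gene Gbp3 higher in clone 1 by 2.79 (adjusted p = 1.99e-07).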
